A study of Mus musculus with 16 samples.

Results

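The genes described here code for the kinases, adaptors and phosphatases that act next to the T cell receptor in thymocytes. They were picked by gene symbol and comprise the kinases *Lck*, *Zap70* and *Csk*, the adaptors *Lat*, *Lcp2* and *Themis*, and the phosphatases *Ptprc*, *Ptpn6* and *Ptpn22*. All 9 were found among the 24974 genes present in both count tables, and the DP table lists 24984 genes in all. Polyadenylated RNA was sequenced with strand information from thymocytes of C57BL/6-background mice that carry a floxed *Tox4* allele (Tox4 F/F) on both chromosomes, with loxP sites around exons 4 to 6. *Tox4* codes for a chromatin-binding HMG-box protein that partners with PP1 phosphatases. The control groups were Tox4 F/F without Cre, with 3 samples of CD4+CD8+ double positive (DP) thymocytes and 5 samples of CD8 thymocytes, and the conditional knockout (cKO) groups were Tox4 F/F Lck-cre, with 3 DP and 5 CD8 samples. All mice are described as littermates of matched sex, 6 to 8 weeks old, the DP thymocytes were sorted, and the CD8 thymocytes were sorted as positive for TCRβ and CD8. Cre is transcribed from the proximal *Lck* promoter and acts from the DN3 stage on, before the cells become DP. Total counts on genes ran from 14583336 to 25981683 in the DP samples and from 8514135 to 13530783 in the CD8 samples.

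T cell receptor signalling starts when Lck, held at the coreceptors CD4 and CD8, phosphorylates the CD3 and zeta chains, to which Zap70 then binds. Zap70 phosphorylates the adaptors Lat and SLP-76 (the product of *Lcp2*), on which downstream enzymes assemble. Csk phosphorylates the inhibitory tyrosine of Lck and CD45 (the product of *Ptprc*) removes that phosphate, while SHP-1 (*Ptpn6*) and PTPN22 damp the pathway and Themis tunes it during positive selection, the step in which DP cells are tested for receptor strength.

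*Tox4* itself was looked at first, as a check on the labels, in CPM (counts scaled to a common library total) normalized by TMM on 1 scale over the 16 samples. Control DP samples 1 to 3 had 149, 165 and 175 normalized CPM of *Tox4* and the cKO DP samples had 128, 135 and 129, so that every cKO value lay below every control value. In CD8 cells the control samples 1 to 5 had 199, 191, 204, 207 and 183, and the cKO samples had 173, 189, 178, 237 and 168. The library labelled cKO replicate 4 of the CD8 cells thus had more *Tox4* than any control, and the groups overlapped. These counts include exons outside the floxed part, so they check the labels only in part. The log2 change of *Tox4* was −0.32 ± 0.11 (SE) in DP cells (edgeR, adjusted p = 0.381, lower in 3 of 3 cKO samples) and −0.06 ± 0.10 in CD8 cells (adjusted p = 0.979). With 1 library left out the change of *Tox4* ran from −0.39 to −0.28 in DP cells and from −0.15 to −0.01 in CD8 cells.

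Several single markers separated DP from CD8 samples as the labels do. *Rag1*, a recombinase gene of DP cells, had 2557 to 4271 TPM (counts scaled for gene length and library total) in the DP samples and 5.57 to 60.1 TPM in the CD8 samples, and *Runx3*, a transcription factor of the CD8 lineage, had 20.0 to 32.0 TPM in DP and 430 to 511 TPM in CD8. *Cd8a* and *Cd8b1*, which both cell types express, were not higher in control CD8 (1578 and 1787 TPM on average) than in control DP (1976 and 2961 TPM). *Cd4* had 1454 to 1835 TPM in the DP samples. Within CD8 cells *Cd4* was 62.1 and 70.9 TPM in control samples 1 and 2 and 69.7 and 81.6 TPM in cKO samples 1 and 2, against 3.64 to 10.7 TPM in the other 3 control samples and 5.79 to 8.33 TPM in the other 3 cKO samples. *Rag1* was split the same way, with 37.2 to 60.1 TPM in the CD8 samples numbered 1 or 2 and 5.57 to 15.8 TPM in those numbered 3 to 5. *Klf2*, a transcription factor of mature T cells, was split in the other direction, with 429.5 to 585 TPM in the CD8 samples numbered 1 or 2 and 898 to 1599 TPM in the others. The 5 markers of CD4 single positive cells summed to 135, 121, 97.3, 93.9 and 96.9 TPM in control CD8 samples 1 to 5 and to 144, 145, 99.8, 57.0 and 113 TPM in the cKO ones, with *Cd4* the most abundant in samples 1 and 2, *Ctla4* in the others and no marker at 0. One library also stood apart in breadth: control CD8 sample 1 detected 17741 genes, while each of the other 9 CD8 libraries detected between 13708 and 15054.

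Markers of other cells were low in all 16 samples. The 6 B cell markers summed to between 21.9 and 65.8 TPM, led by *Cd79b*, and the 6 myeloid markers to between 10.2 and 88.3 TPM, led mostly by *Lyz2* in DP and *Fcer1g* in CD8 samples. In CD8 cells the samples numbered 1 had the most of both: B cell markers summed to 65.8 TPM in control sample 1 and 56.5 TPM in cKO sample 1, against 21.9 to 29.95 and 23.5 to 43.5 TPM in the other samples of their groups. Myeloid markers summed to 36.1 and 40.97 TPM in these samples, against 10.2 to 17.4 and 13.0 to 21.9 TPM. In DP cells the myeloid sums separated the genotypes, with 43.1, 88.3 and 39.96 TPM in control and 29.6, 33.3 and 31.6 TPM in cKO samples. Of the T cell markers, *Zbtb7b* (6.90 to 12.02 against 4.13 to 4.22 TPM), *Ccr7* (24.5 to 48.6 against 13.6 to 17.1 TPM), *S1pr1* (2.29 to 5.79 against 0.952 to 1.54 TPM) and *Cd8a* (1783 to 2342 against 1258 to 1699.9 TPM) were also lower in every cKO DP sample than in any control. Whether the cell make-up behind these markers bears on the cKO values of *Lat* and *Lcp2* in DP was not tested. The γδ and NK markers, 5 of 6 of which are in the tables, summed to 1.82 to 4.25 TPM in DP and 16.1 to 36.1 TPM in CD8. Of these, *Sox13* separated the CD8 genotypes, with 1.79 to 6.30 TPM in control and 7.06 to 13.4 TPM in cKO samples. The 5 stromal markers reached at most 12.1 TPM and the 5 erythroid markers at most 0.448 TPM, with the 4 globin genes at 0 throughout.

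Compared per length, the 9 genes were among the more abundant transcripts of these cells. In control DP cells *Lck* had the highest level, 2660 ± 168 TPM (SD, n = 3), rank 21 of the 12040 genes with a mean of at least 1 TPM, followed by *Lat* with 2123 ± 221 TPM at rank 37 and *Ptprc* with 766 ± 124 TPM. *Lcp2* (365 ± 15.5 TPM), *Themis* (352 ± 110 TPM) and *Csk* (335 ± 15.8 TPM) came next, and *Ptpn6* (289 ± 11.4 TPM), *Zap70* (279 ± 7.96 TPM) and *Ptpn22* (161 ± 9.46 TPM) were lowest. Neighbours in this order overlapped between samples for *Lcp2* and *Themis*, for *Themis* and *Csk*, and for *Ptpn6* and *Zap70*, and did not overlap elsewhere. The DP order was thus clear for *Lck*, *Lat* and *Ptprc* at its top and for *Ptpn22* in last place, and not fully resolved between them.

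In control CD8 cells the order was another one. *Ptprc* led with 1450.5 ± 86.3 TPM (SD, n = 5) at rank 64, ahead of *Lat* with 1225 ± 116 TPM and *Lck* with 1007 ± 26.02 TPM at rank 103. *Lcp2* (479 ± 73.6 TPM), *Ptpn22* (454 ± 63.9 TPM), *Ptpn6* (393 ± 30.4 TPM) and *Csk* (349 ± 36.1 TPM) formed a run in which each overlapped its neighbour, and *Zap70* (236 ± 19.7 TPM) and *Themis* (152 ± 23.1 TPM) closed the order. *Ptprc* exceeded *Lat* in 4 of 5 samples, with a mean log2 difference of 0.25 ± 0.21 (SD). The exception was control sample 1, the library that stood apart, with 1346 TPM of *Ptprc* and 1418 TPM of *Lat*. In the other 4 samples *Ptprc* ran from 1378 to 1537 TPM and *Lat* from 1147 to 1253 TPM, without overlap. *Ptpn22*, lowest of the 9 in DP cells, stood above *Themis* and *Zap70* in CD8 cells.

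**Figure D1:**
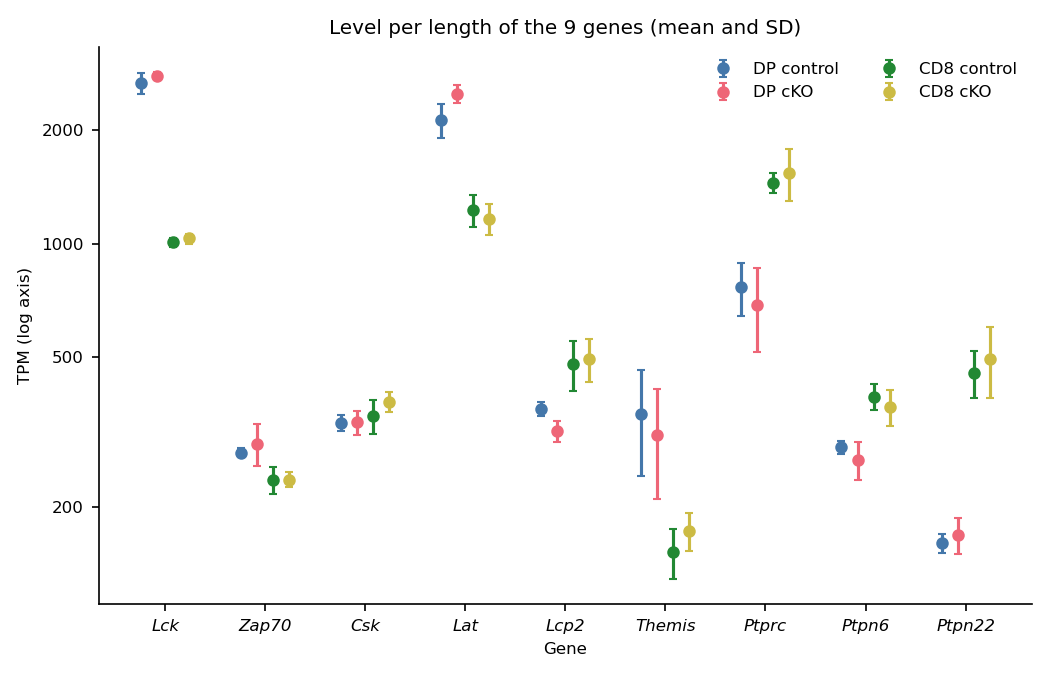
Mean level of each gene in TPM (vertical log axis) in the 4 groups, with bars of 1 SD over 3 DP or 5 CD8 samples. *Lck* and *Lat* stand highest in DP cells, where *Lck* reaches 2660 TPM in control, and *Ptprc* highest in CD8 cells, with 1450.5 TPM in control.

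The cKO groups had nearly the same orders. In cKO DP cells *Lck* (2776 ± 68.3 TPM, n = 3), *Lat* (2492 ± 137 TPM) and *Ptprc* (689 ± 173 TPM) led and *Ptpn22* (169 ± 18.5 TPM) was last, and in cKO CD8 cells *Ptprc* (1538 ± 243 TPM, n = 5), *Lat* (1165 ± 110 TPM) and *Lck* (1031 ± 31.4 TPM) led and *Themis* (173 ± 19.5 TPM) was last. The middle places exchanged genes whose samples overlap: *Csk* stood above *Lcp2* in cKO DP cells, with a mean log2 difference of 0.08 ± 0.14 (SD), and *Ptpn22* and *Lcp2* were level in cKO CD8 cells (−0.01 ± 0.41).

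Levels were also summed by role, without a test. The 3 kinases together had 3275 ± 186 TPM in control DP and 1592 ± 69.1 TPM in control CD8 cells, and the 3 phosphatases had 1215 ± 124 TPM and 2298 ± 82.1 TPM. Most of the lower kinase sum was *Lck* (2660 and 1007 TPM), while *Zap70* had 279 and 236 TPM and *Csk* 335 and 349 TPM. The adaptors summed to 2840 ± 155 TPM in control DP and 1857 ± 152 TPM in control CD8. The TPM ratio of *Lck* to *Csk* was 7.94 ± 0.413 in control DP and 2.90 ± 0.248 in control CD8 cells, and that of *Lck* to *Ptprc* was 3.55 ± 0.712 and 0.696 ± 0.0383. In the cKO groups *Lck* to *Csk* was 8.29 ± 0.551 in DP and 2.72 ± 0.160 in CD8, and *Lck* to *Ptprc* was 4.23 ± 1.22 and 0.684 ± 0.108. The ratio of *Ptpn22* to *Csk*, whose products bind each other, went the other way, from 0.482 ± 0.0505 in control DP to 1.32 ± 0.310 in control CD8. The ratio of *Lat* to *Lcp2* was 5.83 ± 0.731 in control DP and 7.86 ± 0.837 in cKO DP, and 2.60 ± 0.389 and 2.38 ± 0.236 in CD8. In DP cells it ran from 5.02 to 6.44 in control and from 7.07 to 8.73 in cKO samples, the only one of the ratios computed whose genotypes did not overlap there, and this difference was not tested. For each of these ratios the DP and CD8 values did not overlap within either genotype.

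The promoters of the genes that differ most between the cell types are printed here because *Lck* has a pair of start sites, with the proximal promoter used to drive Cre, and because *Lck*, *Lat* and *Themis* fell while *Ptprc* and *Ptpn22* rose. Promoter sequences for all 9 genes were in the RefSeq table used (GRCm38). The 150 bases before a start are shown 5′ to 3′ on the gene's strand, for both starts of *Lck*, which lie 15269 bases apart, for both starts of *Ptpn22*, and for the first start of the others. Capitals mark CNGGAAGT (ETS factors), TGNGGT (RUNX factors) and CAGNTG (E proteins), searched on both strands, and no marked matches overlap in these windows. The distal *Lck* window is chr4:129573642-129573791 and the proximal one chr4:129558373-129558522, those of *Lat* and *Themis* are chr7:126369569-126369718 and chr10:28668210-28668359, and that of *Ptprc* is chr1:138175306-138175455. The windows of *Ptpn22* are chr3:103859645-103859794 for the first start and chr3:103860127-103860276 for the other. *Lck*, *Lat* and *Ptprc* are on the minus strand and *Themis* and *Ptpn22* on the plus strand. None of these windows overlaps another gene or a counted exon of its own gene.
Lck, distal start: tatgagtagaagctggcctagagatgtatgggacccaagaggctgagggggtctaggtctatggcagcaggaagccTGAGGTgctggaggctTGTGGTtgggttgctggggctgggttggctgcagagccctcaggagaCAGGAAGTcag
Lck, proximal start: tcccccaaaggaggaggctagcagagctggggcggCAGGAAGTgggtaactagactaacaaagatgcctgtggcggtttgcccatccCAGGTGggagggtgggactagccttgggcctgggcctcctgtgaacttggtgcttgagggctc
Lat: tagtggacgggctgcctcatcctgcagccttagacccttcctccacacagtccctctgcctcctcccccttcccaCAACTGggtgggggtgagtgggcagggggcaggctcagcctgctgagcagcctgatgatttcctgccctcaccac
Themis: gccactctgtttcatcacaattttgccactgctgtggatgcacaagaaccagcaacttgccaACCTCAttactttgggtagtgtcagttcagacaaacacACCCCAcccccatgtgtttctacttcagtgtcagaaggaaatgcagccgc
Ptprc: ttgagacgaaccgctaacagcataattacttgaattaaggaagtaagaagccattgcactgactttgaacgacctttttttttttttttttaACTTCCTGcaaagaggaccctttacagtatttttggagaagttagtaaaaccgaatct
Ptpn22, first start: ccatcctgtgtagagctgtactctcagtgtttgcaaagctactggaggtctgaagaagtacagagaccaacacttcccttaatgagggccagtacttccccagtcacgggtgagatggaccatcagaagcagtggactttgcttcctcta
Ptpn22, other start: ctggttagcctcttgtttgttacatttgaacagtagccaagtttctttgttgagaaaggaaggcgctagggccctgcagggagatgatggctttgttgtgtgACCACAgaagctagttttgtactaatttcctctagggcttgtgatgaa
An ETS match was present before both *Lck* starts and before *Ptprc*, and such a match is found in 5.54% of the 32851 promoter windows of this length and in 8.56% of the 11681 windows of expressed genes (a mean of at least 1 TPM). RUNX matches stood before the distal *Lck* start (2 matches), before *Themis* (2 matches) and before the other *Ptpn22* start (1 match), against 25.98% of all windows and 23.4% of those of expressed genes with at least 1. An E protein match was present before the proximal *Lck* start and before *Lat*, against 30.1% of all windows and 23.8% of those of expressed genes. No match was seen before the first *Ptpn22* start. Counts are per gene, so transcripts from the distal and proximal *Lck* starts cannot be told apart, and whether transcripts of the Lck-cre transgene add to the *Lck* count in cKO samples was not tested.

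Each gene was tested in 4 comparisons and in the difference between the cell types of the cKO change. A gene was called where the edgeR quasi-likelihood test gave a Benjamini-Hochberg adjusted p under 0.05 over all genes tested, the fold change was at least 1.5 and the mean was at least 1 TPM. All 9 genes passed the filter on low counts in every comparison. Replicates are separate samples by their labels, with no statement of which mouse each came from, so the p-values measure the spread between these samples.

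The first question was whether loss of *Tox4* changes these genes in DP cells. None of the 9 was called, beside 0.152% of the 11187 genes that could be called. At an unadjusted p under 0.05 in edgeR 0 of 9 passed, where 1079 of 11748 genes tested did, and 0 of 9 passed with DESeq2. A fit blocked by replicate number called 131 genes instead of 17, and DESeq2 called 160. With any 1 library left out the calls were 0 to 8, so this background depends on every library, and 0 of the 9 passed in each of these fits. In normalized CPM only *Lcp2* had groups that did not overlap, 1 of 9, where 15.1% of all genes tested did not overlap. In TPM *Lat* did not overlap either, with 1909.8, 2107 and 2352 TPM in control and 2416, 2409 and 2649.9 TPM in cKO samples. The share of all genes without overlap was not computed in TPM. In normalized CPM the *Lat* groups overlapped, with up to 1037 in control and from 1019 in cKO samples. The 95% interval of the change lay inside a 1.5-fold change in either direction for 8 of the 9, with *Themis* the exception. These intervals come from the fit without the block. With the block the lowest adjusted p of the 9 were 0.155 for *Lat* and 0.344 for *Lcp2* (edgeR), against 0.622 and 0.681 without it.

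The same question in CD8 cells gave the same count. None of the 9 was called, beside 0.0994% of 11069 genes, and 0 passed with DESeq2. At an unadjusted p under 0.05 in edgeR 0 of the 9 passed, where 629 of 11227 genes tested did. All 9 had overlapping groups in normalized CPM, where 1.5% of all genes did not overlap. All 9 intervals lay inside a 1.5-fold change in either direction. With 1 library left out the calls were 4 to 20 instead of 11, with 20 without the library labelled cKO replicate 4, 15 without control sample 1 and 4 without control sample 3. Without both samples numbered 1 there were 5 and with DESeq2 there were 46, and 0 of the 9 passed in each case. The difference between the CD8 and the DP change passed for 0 of 9 genes (0 with DESeq2), where 0.107% of 12131 genes (13) passed. At an unadjusted p under 0.05 in edgeR it passed for 0 of 9, where 639 of all genes tested passed. Without control CD8 sample 1 the genes passing were 5 instead of 13, and with any 1 library left out 0 to 11, with 0 of the 9 each time.

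**Figure D2:**
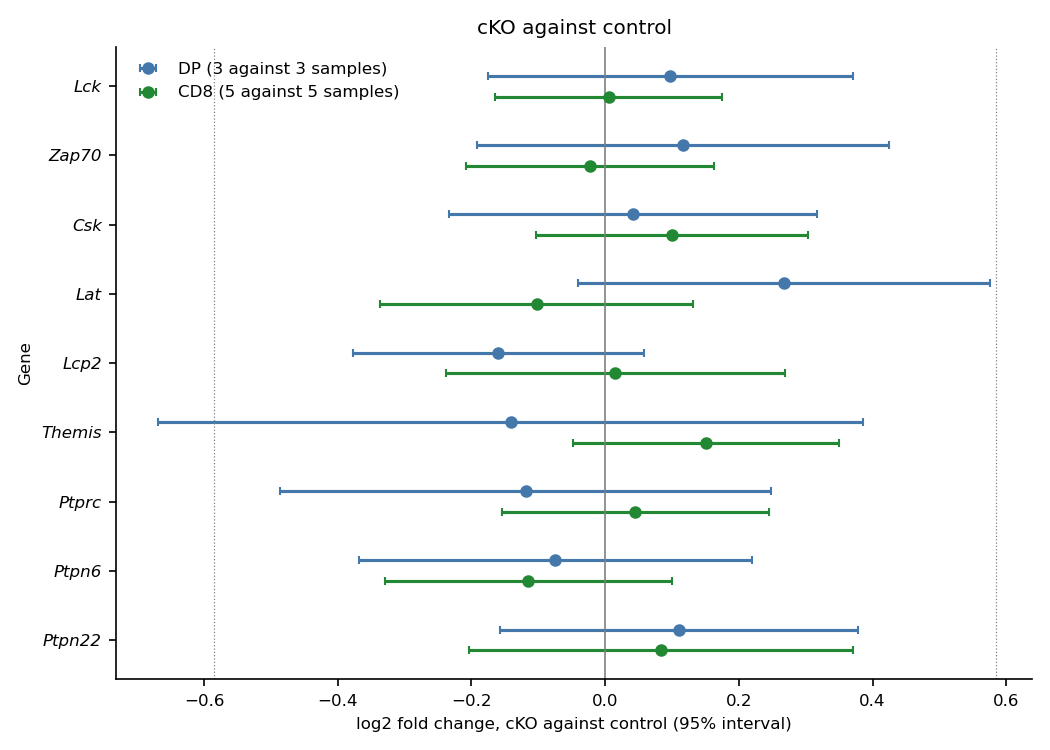
Log2 fold change of each gene, cKO against control (horizontal axis), with 95% intervals from edgeR, in DP (blue, 3 against 3 samples) and CD8 cells (green, 5 against 5). Dotted lines mark a fold change of 1.5, and all 18 intervals include 0.

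Control CD8 cells set against control DP cells gave many differences, among these genes and among all genes. An adjusted p under 0.05 was reached by 8 of the 9, 4 higher and 4 lower in CD8, where 60.3% of the 11758 genes tested reached it. With the fold and TPM thresholds, 2 of 9 were called higher, beside 22.8% of genes, and 3 of 9 lower, beside 23.1%. The groups did not overlap for 8 of 9 genes, where 56.8% of all genes did not. The median log2 change of the 9 was −0.02 and that over all genes −0.01, while the median absolute change was 0.85 for the 9 and 0.60 over all genes. In the cKO samples, which are other libraries than the controls, the same comparison called the same 2 genes higher, beside 23.3% of genes, and the same 3 lower, beside 26.8%. Cell type and count table go together here and cannot be told apart, and the labels do not say which libraries were sequenced together. Fewer cells of a kind and less RNA per cell cannot be told apart either. Sex is partly tied to cell type too: *Xist* was near 0 in all 6 DP samples and in 2 of the 5 control CD8 samples. With those 2 alone, 6 of the 9 genes passed. That fit also leaves out control CD8 samples 1 and 2, which have more *Cd4* and *Rag1*. Sex and that split cannot be told apart in it.

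**Figure D3:**
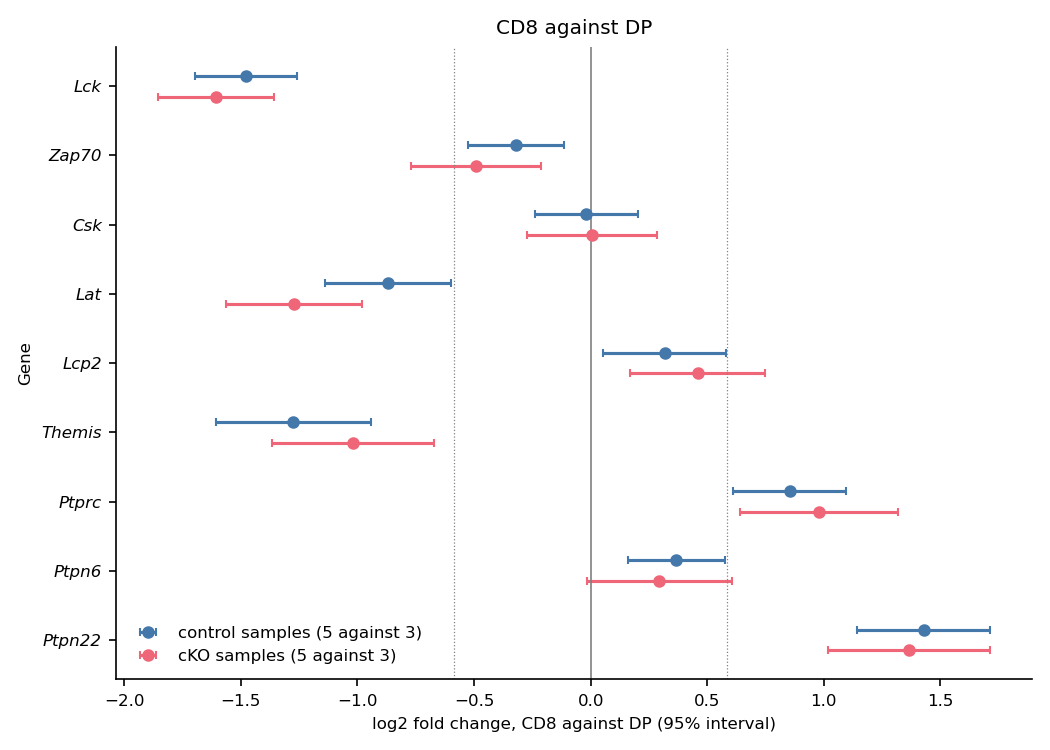
Log2 fold change of each gene, CD8 against DP (horizontal axis), with 95% intervals from edgeR, in control (blue) and cKO samples (red), each 5 CD8 against 3 DP samples. Dotted lines mark a fold change of 1.5; *Lck* has the lowest change in both genotypes and *Ptpn22* the highest.

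Among the kinases, *Lck* and *Zap70* were lower in CD8 than in DP cells and *Csk* gave no passing difference. *Lck*, on the minus strand at chr4:129548344-129573641, had 1828, 2151 and 2243 normalized CPM in control DP samples 1 to 3 and 2081, 2144 and 2441 in the cKO ones. In CD8 cells it had 737, 727, 698, 740 and 749.6 in control samples 1 to 5 and 769, 764, 703, 768 and 658 in cKO samples 1 to 5. All 10 CD8 values lay below all 6 DP values, and within each cell type the genotypes overlapped. The log2 change between control CD8 and control DP was −1.48 ± 0.10 (SE), 2.79-fold lower (edgeR, adjusted p = 2.24e-07), and in cKO samples it was −1.61 ± 0.11 (adjusted p = 1.47e-07). Its absolute change was larger than that of 82.3% of the genes tested. The cKO change of *Lck* was 0.10 ± 0.12 in DP, with a 95% interval from −0.17 to 0.37, and 0.01 ± 0.08 in CD8, from −0.16 to 0.17.

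*Zap70*, the kinase that binds the phosphorylated receptor chains, had between 236 and 334 normalized CPM in the 6 DP samples and between 170 and 217 in the 10 CD8 samples, so that the cell types did not overlap. Its change between control CD8 and control DP was −0.32 ± 0.09 (edgeR, adjusted p = 0.0116), under the 1.5-fold threshold, and it no longer passed without control DP sample 3 (adjusted p = 0.0553) or with the CD8 controls low in *Xist* alone (0.0716). In cKO samples the change was −0.49 ± 0.13 (edgeR, adjusted p = 0.00514). *Csk*, the kinase that restrains Lck, had 341 to 440 normalized CPM in DP and 326 to 455 in CD8, with overlapping groups. Its change between control CD8 and control DP was −0.02 ± 0.10 (edgeR, adjusted p = 0.888), with a 95% interval from −0.24 to 0.20. For *Zap70* the cKO change was 0.12 ± 0.14 in DP and −0.02 ± 0.09 in CD8, and for *Csk* it was 0.04 ± 0.12 and 0.10 ± 0.10. The annotated span of *Ppia*, a highly expressed gene, overlaps *Csk* on the other strand. That span joins all annotated entries of a gene, so it does not show that *Ppia* is transcribed within *Csk*. The authors' counting used strand.

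**Figure D4:**
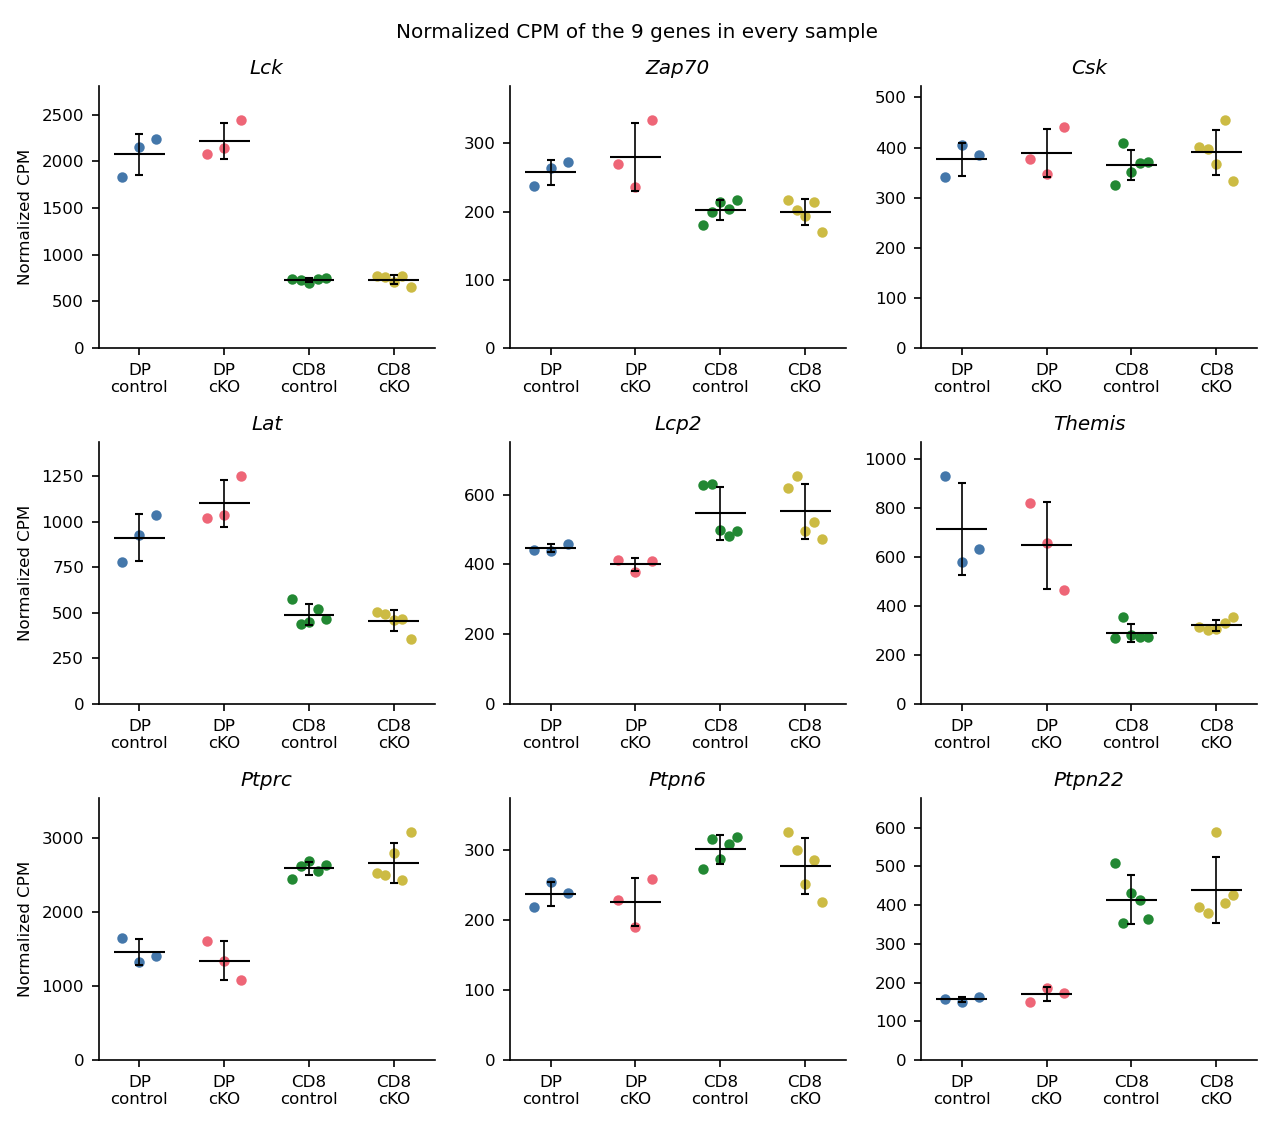
Normalized CPM of each of the 9 genes (vertical axes from 0) in the 4 groups, with 1 point per sample, the group mean as a line and bars of 1 SD. *Lck*, *Zap70*, *Lat* and *Themis* are lower and *Lcp2*, *Ptprc* and *Ptpn22* higher in all CD8 samples than in any DP sample.

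The adaptors went in different directions. *Lat*, the membrane scaffold that Zap70 phosphorylates, had 778, 926 and 1037 normalized CPM in control DP samples 1 to 3 and 1019, 1036 and 1251 in the cKO ones. In CD8 cells it had 577, 442, 449.6, 519 and 468 in control samples and 505, 492, 464, 469 and 357 in cKO samples. Every DP value was above every CD8 value, and cKO sample 5 was the lowest in CD8. The change between control CD8 and control DP was −0.87 ± 0.12, 1.83-fold lower (edgeR, adjusted p = 9.05e-05), and in cKO samples −1.27 ± 0.13 (adjusted p = 4.67e-06). The cKO change of *Lat* was 0.27 ± 0.14 in DP (edgeR, adjusted p = 0.622, higher in 3 of 3 numbered pairs), the largest of the 9 in size with all libraries, and −0.10 ± 0.11 in CD8. With 1 library left out it ran from 0.16 to 0.36 in DP and from −0.14 to −0.02 in CD8. The CD8 and DP changes of *Lat* differed by −0.37 ± 0.19, which did not pass (edgeR, adjusted p = 0.9496).

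*Themis*, a T-lineage adaptor of positive selection, had 931, 582 and 634 normalized CPM in control DP samples and 821, 657 and 465.98 in the cKO ones. In CD8 cells it had 269, 354, 282, 272 and 275 in control samples and 315, 301, 307, 331 and 356 in cKO samples. It was the most variable of the 9 in DP cells, with a coefficient of variation of 26.3% in control and 27.4% in cKO, and still all DP samples were above all CD8 samples. Between control CD8 and control DP it fell by 1.27 ± 0.15 on the log2 scale, or 2.42-fold (edgeR, adjusted p = 2.16e-05), and the change in cKO samples was −1.02 ± 0.16 (adjusted p = 0.000126). The cKO change was −0.14 ± 0.23 in DP, with a 95% interval from −0.67 to 0.39, and 0.15 ± 0.09 in CD8, from −0.05 to 0.35. In DP cells the samples numbered 1 of both genotypes had the most *Themis* and *Ptprc* and the least *Lck* and *Lat* within their groups.

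*Lcp2*, the cytosolic adaptor that joins Lat, had 442, 438 and 459.9 normalized CPM in control DP samples and 412, 379.9 and 409 in the cKO ones. In CD8 cells it had 628, 631, 498, 481 and 495 in control samples and 619, 653, 497, 521 and 472 in cKO samples. The CD8 samples numbered 1 and 2 were the highest in both genotypes, and they are the ones with more *Cd4* and *Rag1*. Whether other cells add to the *Lcp2* level was not tested. The change between control CD8 and control DP was 0.32 ± 0.12 (edgeR, adjusted p = 0.0379), under the 1.5-fold threshold, and it no longer passed when any 1 of control DP samples 1 to 3 or of control CD8 samples 1 and 2 was left out (adjusted p from 0.0537 to 0.101). With the CD8 controls low in *Xist* alone it was 0.17 (edgeR, adjusted p = 0.202), and it did not pass with no filter on low counts (0.0576) or with all 4 groups in 1 fit (0.0510). In cKO samples the change was 0.46 ± 0.13 (edgeR, adjusted p = 0.00932). The cKO change in DP was −0.16 ± 0.10 (edgeR, adjusted p = 0.681), lower in 3 of 3 numbered pairs, and in CD8 it was 0.02 ± 0.12.

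The 3 phosphatases were all higher in control CD8 than in control DP cells. *Ptprc*, which codes for CD45, had 1650.2, 1322 and 1414 normalized CPM in control DP samples 1 to 3 and 1616, 1339 and 1080.2 in the cKO ones. In CD8 cells it had 2450.3, 2627, 2692, 2554 and 2638 in control samples and 2529, 2501, 2807, 2439 and 3084 in cKO samples. The lowest CD8 sample was above the highest DP sample. The change between control CD8 and control DP was 0.85 ± 0.11, 1.81-fold higher (edgeR, adjusted p = 4.29e-05), and in cKO samples 0.98 ± 0.16 (adjusted p = 0.000141). The cKO change was −0.12 ± 0.16 in DP and 0.05 ± 0.09 in CD8. CD45 isoforms, which arise by splicing, cannot be told apart in counts per gene.

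*Ptpn22* rose more than any other of the 9. It had 157, 150.5 and 163 normalized CPM in control DP samples 1 to 3 and 149.9, 186 and 172 in the cKO ones. In CD8 cells it had 509.8, 353, 431, 414 and 363 in control samples and 394, 379, 588, 405 and 426 in cKO samples. No CD8 sample came near the DP range, and within CD8 cells control sample 1 and cKO sample 3 were the highest. The change between control CD8 and control DP was 1.43 ± 0.13, 2.69-fold higher (edgeR, adjusted p = 2.57e-06), and 1.37 ± 0.16 in cKO samples (adjusted p = 1.14e-05). The cKO change was 0.11 ± 0.12 in DP and 0.08 ± 0.13 in CD8, and in CD8 it was −0.04 without cKO sample 3.

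*Ptpn6*, which codes for SHP-1, had 191 to 259 normalized CPM in the 6 DP samples, 272 to 319 in control CD8 and 225 to 326 in cKO CD8 samples. Its control samples did not overlap between the cell types and its cKO samples did. The change between control CD8 and control DP was 0.37 ± 0.09 (edgeR, adjusted p = 0.00554), under the 1.5-fold threshold, and in cKO samples it was 0.29 ± 0.14 and did not pass (adjusted p = 0.0910). That change passed without cKO DP sample 3 (edgeR, adjusted p = 0.0492) and without cKO CD8 sample 5 (0.0320), and with all 4 groups in 1 fit (0.0423). The cKO change was −0.07 ± 0.13 in DP and −0.11 ± 0.10 in CD8, and the difference of these changes, −0.05 ± 0.17, did not pass (edgeR, adjusted p = 0.984).

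Without control CD8 sample 1, the library that stood apart, 7 of the 9 genes still passed between control CD8 and control DP, *Lcp2* being the one lost. *Lck* then had a log2 change of −1.47, *Lat* of −0.93, *Themis* of −1.24, *Ptprc* of 0.88 and *Ptpn22* of 1.35. The median coefficient of variation of the 9 genes was 8.58% in control DP, 12.3% in cKO DP, 8.32% in control CD8 and 11.5% in cKO CD8 samples.

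The rest of the pathway was read from 5 lists with 49 genes. No gene of these lists passed in the cKO comparison in DP or in CD8 cells in edgeR without a replicate block, and DESeq2 passed 0 and 1. Counts for these lists with the block are not reported. An unadjusted p under 0.05 in edgeR was reached by 4 of the 49 in DP and 2 in CD8, where 1079 of 11748 and 629 of 11227 genes reached it, about the same share. The gene that passed in DESeq2 was *Dgka*, a kinase that turns diacylglycerol into phosphatidic acid, named here after its values were seen, with log2 changes of −0.28 ± 0.10 in DP and −0.44 ± 0.11 in CD8 (edgeR, adjusted p = 0.396 and 0.208; DESeq2 in CD8, 0.0141). All 5 cKO CD8 samples, the library labelled cKO replicate 4 included, had less *Dgka* than every control CD8 sample. It was the only 1 of the 49 whose CD8 groups did not overlap, where 168 of the 11227 genes tested did not. In DP cells 2 of the 49 were higher and 6 lower without overlap, where 924 and 854 of the 11748 genes tested were. Between control CD8 and control DP cells 18 of 49 were higher and 20 lower at an adjusted p under 0.05, where 3515 and 3578 of the 11758 genes tested were. The calls were 16 and 15, or 32.7% and 30.6%, beside 22.0% and 22.3% of all genes tested. Their median log2 change was 0.18. Of the 5 other kinases 3 rose and 2 fell, of the 12 other adaptors 3 rose and 6 fell, and of the 8 effectors 4 rose and 1 fell. Of the 17 genes that damp the pathway 6 rose and 8 fell, and of the 7 other phosphatases 2 rose and 3 fell. Rises and falls were thus both present in each list, as they were among all genes, and whether any list differs from all genes was not tested.

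**Figure D5:**
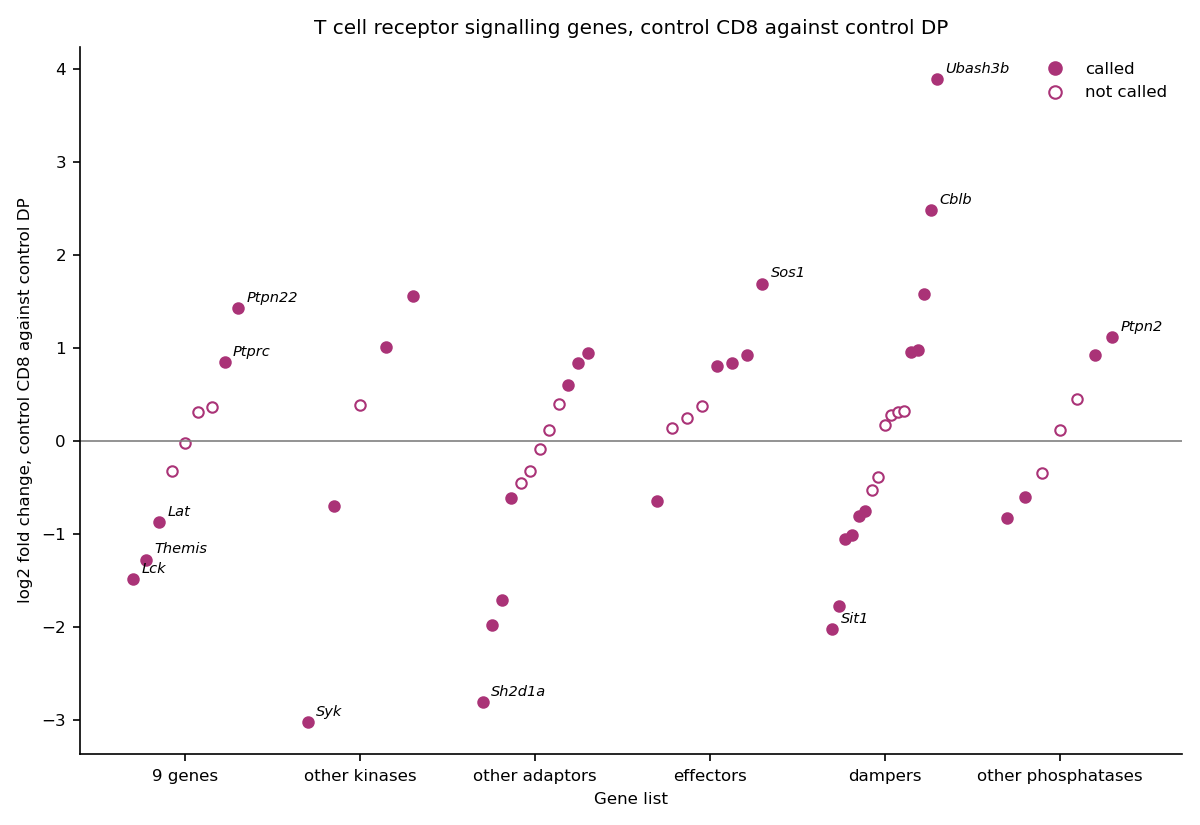
Log2 fold change between control CD8 and control DP (vertical axis) of the 9 genes and of the 49 other genes by list, with 1 point per gene, filled where called. *Ubash3b* has the largest rise, 3.89, and *Syk* the largest fall, −3.02.

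The largest rises in the lists were in *Ubash3b*, *Cblb* and *Sos1*. *Ubash3b*, a phosphatase that acts on Zap70, had 3.02 ± 1.06 normalized CPM (SD, n = 3) in control DP and 44.1 ± 3.25 (n = 5) in control CD8 cells, a log2 change of 3.89 ± 0.22 (edgeR, adjusted p = 5.61e-08). *Cblb*, a ubiquitin ligase that restrains activation, had 55.3 ± 4.76 and 304 ± 51.3, a change of 2.48 ± 0.15 (edgeR, adjusted p = 8.67e-08). *Sos1*, an activator of Ras, had 68.8 ± 6.25 and 218 ± 16.7, a change of 1.69 ± 0.11 (edgeR, adjusted p = 1.40e-07). Among the other phosphatases *Ptpn2* led with 38.6 ± 0.626 and 82.5 ± 12.6, a change of 1.121 ± 0.14 (edgeR, adjusted p = 3.08e-05).

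The largest falls were in *Syk*, *Sh2d1a* and *Sit1*. *Syk*, the relative of Zap70 used at earlier stages, had 63.5 ± 6.76 normalized CPM in control DP (SD, n = 3) and 7.78 ± 5.62 in control CD8 cells (n = 5), a log2 change of −3.02 ± 0.42 (edgeR, adjusted p = 7.31e-05). With the CD8 controls low in *Xist* alone it was −4.03. *Sh2d1a*, the adaptor SAP of SLAM-family receptors, had 120.5 ± 10.5 and 16.9 ± 6.26, a change of −2.81 ± 0.24 (edgeR, adjusted p = 1.27e-06). *Sit1*, a membrane adaptor that damps signalling, had 128 ± 8.504 and 31.0 ± 3.49, a change of −2.02 ± 0.11 (edgeR, adjusted p = 5.15e-08). Within control CD8 cells *Syk* had 15.0 and 12.8 in samples 1 and 2 against 3.48 to 4.08 in the others, so that it was split as *Cd4* was. *Sh2d1a* was split in the same way, with 24.4 and 22.9 normalized CPM against 10.8 to 14.2 in control, and 19.98 and 20.1 against 10.5 to 12.3 in cKO CD8 samples, and its change was −3.34 with the CD8 controls low in *Xist* alone.

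Genes with the pattern most like *Lck* and *Ptpn22* over the 16 samples were found by the smallest root mean square difference of log2 normalized CPM, after each of 11534 genes was centred on its own mean. For *Lck* these were *Ddx39* (0.10), *Smarcd2* (0.10) and *Ezr* (0.11), and for *Ptpn22* they were *Foxp1*, *Sec24a* and *Adar* (0.18 each).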

How the data were processed

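Gene counts of 6 DP and 10 CD8 samples were used as deposited, 1 table for each cell type. The authors trimmed reads with fastp 0.13.1, aligned them to mm10 with HISAT2 2.1.0 and counted them per gene and strand with featureCounts 1.6.1, without molecular identifiers. The 9 genes and all lists were chosen with earlier results of these data known.

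Counts were tested in R 4.3.3 with edgeR 4.0.16 (limma 3.58.1): genes passed filterByExpr, libraries were normalized by TMM, and a quasi-likelihood F test compared 2 groups, with p-values adjusted by Benjamini-Hochberg over all genes tested. A call needed a mean of 1 TPM or more, an adjusted p under 0.05 and 1.5-fold or more in either direction. TPM used the exonic lengths of the DP table for both tables. The difference of the cKO changes was tested with all 16 samples in 1 fit, on the adjusted p alone. Intervals cover 95%. The test was tested on simulated data with the group sizes of the comparisons, where it recovered 100% of 100 genes changed by 1 and of 100 changed by 2 on the log2 scale, with 5 to 13 false calls among 11227 to 11758 genes. The simulated spread was small and the same for all genes, and smaller changes were not simulated, so this does not measure the power of the comparisons. Plots and summaries used pandas 2.3.3 and matplotlib 3.10.9.

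The replicate numbers were checked as pairs: deviations from the group means of same-numbered DP samples correlated at 0.120 to 0.643, each over 0.1, so the numbers were taken to pair the DP samples, although samples numbered 2 and 3 correlated better across numbers (0.297 and 0.324). For control CD8 against control DP the mean of such correlations was −0.03. Standard errors, intervals and p-values are from fits without a replicate block unless the block is named. Alternatives were DESeq2 1.42.0, RLE normalization, no filter on low counts, a replicate block, all 4 groups in 1 fit, no fold change threshold, each sample left out in turn, no CD8 sample numbered 1, and only CD8 controls low in *Xist*.

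Genes named from the 5 pathway lists were those passing in a cKO comparison and, between control CD8 and control DP, the 3 called with the largest change in each direction plus the largest of each list. Genes were called like a member for the 2 members with the largest change. Markers of DP and CD8 cells are given as single genes, and sums over their lists are not reported here. Marker lists were *Cd4*, *Zbtb7b*, *Cd40lg*, *Ctla4* and *Foxp3* for CD4 cells, and lists for B, myeloid, γδ and NK, stromal and erythroid cells.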

Additional observations from a re-analysis of the deposited data

Results flagged for a closer look

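Each of 34 groups of 5 CD8 samples was searched for 1 sample far from the other 4 of its group, a rule that flags about 1 in 20 groups by chance, or 1.7 of these, and 4 passed. *Lat* had 356.836 normalized CPM in cKO sample 5, with the nearest sample at 463.592. *Themis* had 354.054 normalized CPM in control sample 2, with the nearest at 281.765. *Ptpn22* had 588.349 normalized CPM in cKO sample 3, with the nearest at 426.018. *Cblb* had 394.066 normalized CPM in control sample 1, with the nearest at 295.014.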

How the results depend on the processing

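The 5 genes called between control CD8 and control DP, *Lck*, *Lat*, *Themis*, *Ptprc* and *Ptpn22*, passed on the same side under every alternative. *Zap70*, *Ptpn6* and *Lcp2* did not always pass: with the replicate block the adjusted p of *Ptpn6* was 0.0512 in edgeR. Of the log2 changes under alternatives, 769 kept direction and side, 12 no longer passed, 3 newly passed and 41 changed sign.

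In DP cells 160 genes were called with DESeq2, 74 with no filter, 131 with the replicate block and 42 with all 4 groups in 1 fit. In CD8 cells 46 were called with DESeq2 and 5 without both samples numbered 1. The difference of the changes passed for 36 genes with DESeq2 and 6 without both samples numbered 1. In CD8 cells same-numbered samples correlated at 0.0908 to 0.365, not each over 0.1, so the numbers were not taken as pairs. The mean of these correlations was 0.277, against −0.0719 for differently numbered samples. As in DP cells, not every sample correlated best with its own number. The numbers still went with some genes: *Xist* was at most 5.003 TPM in samples 3 and 4 of both genotypes and 593 to 946 TPM in the others, and *Cd4* and *Rag1* were higher in samples 1 and 2. What the numbers mark is not stated. The replicate block there gave 31 genes called in CD8 and 33 for the difference. Between control CD8 and control DP the block gave 4905 genes called instead of 5213. Between cKO CD8 and cKO DP it gave 5415 instead of 5707. Of the kinases, adaptors and phosphatases picked by symbol, 7 instead of 8 passed between the control cell types, with *Ptpn6* lost. Between the cKO cell types 7 passed with the block and without it.

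Without both CD8 samples numbered 1, *Lck* changed by −0.0028 in CD8 (cKO against control), *Csk* by 0.028 (control CD8 against control DP) and *Ptpn22* by 0.0928 (difference). With no filter *Csk* changed by −0.0245 (cKO CD8 against cKO DP). With each sample left out in turn, DP calls were 0 to 8, CD8 calls 4 to 20 and the difference 0 to 11. The lowest and highest cKO changes in DP were −0.011 and 0.2137 for *Zap70*, −0.039 and 0.1054 for *Csk*, −0.3467 and 0.0889 for *Themis*, −0.2716 and 0.0305 for *Ptprc*, and −0.164 and 0.0226 for *Ptpn6*. In CD8 they were −0.0143 and 0.0443 for *Lck*, −0.0603 and 0.0319 for *Zap70*, −0.0528 and 0.076 for *Lcp2*, −0.0086 and 0.075 for *Ptprc*, and −0.0444 and 0.1721 for *Ptpn22*. The other cKO changes kept their sign. In DP *Lck* ran from 0.0097 to 0.1488 and *Lat* from 0.1593 to 0.3598. There *Lcp2* ran from −0.1812 to −0.136 and *Ptpn22* from 0.024 to 0.1916. In CD8 *Csk* ran from 0.0383 to 0.1548 and *Lat* from −0.1379 to −0.0228. There *Themis* ran from 0.115 to 0.2359 and *Ptpn6* from −0.1761 to −0.0452. *Csk* ran from −0.0874 to 0.041 between the control cell types and from −0.0639 to 0.1085 between the cKO ones. The difference ran from −0.2524 to 0.0035 for *Zap70*, −0.0211 to 0.1545 for *Csk*, −0.153 to 0.0638 for *Ptpn6* and −0.1578 to 0.0563 for *Ptpn22*. The cause was not tested.

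With 3 DP and 5 CD8 samples per group, a p that misses the threshold does not show that a gene is unchanged, and the intervals give the sizes left possible. The number of genes called in the cKO comparisons depends on the method, while the number of the 9 genes passing there was 0 under each. Which mouse or litter each sample came from is not stated. Counts were made without molecular identifiers, so duplicate reads were not removed by them.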
